A study of Mus musculus with 21 samples.

Results

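Epiblast stem cells (EpiSCs), which stand for the primed, pluripotent epiblast of the early post-implantation embryo, were compared with mouse embryonic fibroblasts (MEFs), which are mesenchymal cells grown from the body of the embryo. The comparison took in every gene name of a table of RNA sequencing values and used 6 of the study's 21 libraries, 3 of EpiSCs and 3 of MEFs. Both groups carried the cell line name OG2 and the entry WT under treatment. OG2 is known as the name of a mouse strain with a green fluorescent protein reporter under the Oct4 promoter, but the labels describe no transgene, and they give no passage, culture medium or sex. The library titles end in br1 to br3, which may stand for biological replicate, but the labels do not explain the letters. Nothing else in them says that the 3 libraries of a group came from separate cultures. The p-values therefore measure only the spread between these libraries, which may be technical. The same table holds 3 libraries of embryonic stem cells (ESCs) and 3 of 2-cell-like cells, which entered the fit and its estimate of the spread. Another table, of ESCs with added lactate, was not used here.

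The epiblast is an epithelium: its cells hold each other by E-cadherin, tight junctions and desmosomes, sit on a basement membrane and keep apical and basal sides apart. Fibroblasts are mesenchyme: they lack that polarity, build collagen and fibronectin matrix, pull on it with actin and myosin, and are kept in that state by transcription factors of the Zeb, Snail and Twist families. The passage of epiblast cells to mesoderm at gastrulation is an epithelial-mesenchymal transition, and the reverse passage is among the first steps when fibroblasts are reprogrammed to pluripotency.

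Of 21161 gene names, 16358 had at least 1 FPKM (fragments per kilobase of transcript, scaled to the fragments mapped in the library) in at least 3 of the 12 libraries of the table and were tested with limma on log2(FPKM + 1). EpiSCs had higher levels than MEFs for 6857 genes, which are 41.9% of those tested, and lower levels for 4992, which are 30.5%, at a Benjamini-Hochberg adjusted p of at most 0.05. Each count of list members called higher or lower given here is to be read against those 2 shares, and each median difference against 0.105, the median over all tested genes. All differences are EpiSC minus MEF of log2(FPKM + 1), a scale on which genes of low level change less than their FPKM do. With median-of-ratios scaling the median over all genes was 0.000, and the split became 5388 genes higher and 6010 lower in EpiSCs, or 47.3% of the called genes higher in place of 57.9%. Of the tested genes, 12081 had EpiSC and MEF values that did not overlap, and 2126 had a mean under 1 FPKM in both groups. Which libraries brought those 2126 genes past the filter was not counted.

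The EpiSC libraries were not equally alike. EpiSC replicate 1 correlated with replicates 2 and 3 at r = 0.9733 and 0.9726 across genes, while replicates 2 and 3 correlated with each other at 0.9955, as did the MEF libraries among themselves (0.9949 to 0.9955). In EpiSC replicate 1, 225 genes stood at least 1 (log2) above the mean of the other EpiSC libraries and 494 at least 1 below it. The same count, in both directions together, was 142 and 144 genes in EpiSC replicates 2 and 3 and 45 to 55 in the MEF libraries. EpiSC and MEF libraries correlated at 0.7635 to 0.7702. Without EpiSC replicate 1, 7188 genes were called higher and 5353 lower in EpiSCs. The FPKM values summed to between 398477 and 430314 in the EpiSC libraries and between 375926 and 376488 in the MEF libraries, and 12677 to 13124 genes reached 1 FPKM in EpiSC libraries and 12845 to 12871 in MEF libraries. Read counts are not known, so no counting intervals are given, and an exact 0 means only that the gene is listed at 0.

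The labels held against markers of both cell types. The 10 epiblast markers were all called higher in EpiSCs, with a summed level of 1811 to 1988 FPKM in EpiSCs and 2.23 to 2.65 FPKM in MEFs. All 10 fibroblast markers were called lower in EpiSCs, with a summed level of 13.9 to 14.9 FPKM in EpiSCs and 984 to 1017 FPKM in MEFs. Markers of 2-cell-like cells were at or near 0 in both groups, none above 0.0905 FPKM in sum.

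MEF libraries also held transcripts of genes taken as markers of other cell types. The sum of 9 macrophage markers with an entry was 5.33 to 27.5 FPKM in EpiSCs and 226 to 246 FPKM in MEFs. Lyz2, which encodes the lysozyme of macrophages, stood at 0.0418, 0.0314 and 0.0953 FPKM in EpiSCs and at 177, 159 and 169 FPKM in MEFs. The complement genes C1qa, C1qb and C1qc and the macrophage receptor gene Adgre1 were listed at 0 in all EpiSC libraries, and in MEFs they ranged between 4.92 and 14.5 FPKM. Of the 8 macrophage markers tested, 7 were called lower in EpiSCs. The exception was Cd68, a lysosomal protein gene, at 4.38, 23.7 and 24.9 FPKM in EpiSCs and 17.4, 16.1 and 16.9 FPKM in MEFs. Adipocyte markers summed to 1.08 to 2.08 FPKM in EpiSCs and 54.2 to 70.4 FPKM in MEFs, most of it from Fabp4, a fatty acid carrier gene. Endoderm markers summed to 1.33 to 1.52 FPKM in EpiSCs and 45.7 to 48.4 FPKM in MEFs, skeletal muscle markers to 11 to 12.1 FPKM in EpiSCs and 40.5 to 46.4 FPKM in MEFs, and cartilage and bone markers to 9.78 to 11.4 FPKM in EpiSCs and 16.2 to 16.6 FPKM in MEFs. Those sums rest on 5 of 8, 2 of 6 and 5 of 6 markers with an entry. Every listed entry reached at least 0.5 FPKM in some library, and the markers without an entry add nothing to a sum. Sums from so few markers do not show that cells of these types were present. Called lower in EpiSCs were 2 of 3 tested endoderm markers and 2 of 2 skeletal muscle markers. The 4 tested cartilage and bone markers split, 2 higher and 2 lower. Early mesoderm markers were higher in sum in EpiSCs, at 13.6 to 16.1 FPKM, against 1.49 to 1.9 FPKM in MEFs. Sums of endothelial, neural and trophoblast markers did not exceed 29.2 FPKM in any library of either group. The trophoblast sum ran between 1.63 and 19.7 FPKM in EpiSCs and between 7.01 and 8.42 FPKM in MEFs. In bulk RNA, fewer cells of a type and less RNA per cell cannot be told apart. The part of other cell types in the differences below was not tested.

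The largest difference among genes higher in EpiSCs was that of Pou5f1, which encodes OCT4 and lies at chr17:35506018-35510772 (GRCm38). It stood at 576, 720 and 736 FPKM in EpiSCs and was listed at 0 in all 3 MEF libraries (adjusted p = 2.79e-14). After it among genes higher in EpiSCs came Utf1, a chromatin factor gene of pluripotent cells, at 313, 316 and 313 FPKM in EpiSCs and 0 in every MEF library, and Dnmt3b, the de novo DNA methyltransferase gene, at 282, 424 and 433 FPKM in EpiSCs and 0.515, 0.473 and 0.295 FPKM in MEFs. Tdgf1 (the Nodal co-receptor Cripto), L1td1, Epcam, Pim2, Cdh1, Lin28a, Platr10, Otx2 and Platr14 completed the 12 with the largest difference. Their EpiSC means lay between 93.2 FPKM for Otx2 and 456 FPKM for Pim2, a serine-threonine kinase gene, and none of them reached 2 FPKM in any MEF library. Pim2 was among the genes with the widest EpiSC spread, at 236, 562 and 568 FPKM in its 3 EpiSC libraries.

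The largest difference in the other direction was that of Bgn, the gene of the small proteoglycan biglycan, at chrX:73483602-73495933. It stood at 0.113, 0.107 and 0.0301 FPKM in EpiSCs and at 855, 818 and 849 FPKM in MEFs, a difference of -9.60 (SE 0.08, adjusted p = 2.79e-14). With EpiSC and MEF libraries alone, the limma fit gave Bgn an adjusted p of 2.25e-07. The very small p-values of the main fit thus lean on the spread shared with the other groups. The imprinted noncoding RNA H19 followed, at 0.142, 0.268 and 0.128 FPKM in EpiSCs and 871, 852 and 860 FPKM in MEFs. The other 10 were the membrane protein gene Emp1, the matrix genes Mgp, Fbln2, Ccn2 and Col1a1, the calcium-binding protein gene S100a4, the smooth muscle actin gene Acta2, the signalling regulator gene Arhgdib, the metalloproteinase inhibitor gene Timp2, and Lyz2. Their MEF means ranged between 169 FPKM for Lyz2 and 581 FPKM for Acta2, and their EpiSC means stayed at or below 2.02 FPKM. Mgp was listed at 0 in every EpiSC library and at 370, 342 and 374 FPKM in MEFs.

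Core pluripotency genes were higher in EpiSCs almost throughout: 20 of 21 tested were called higher and none lower, with a median difference of 4.40. Sox2, the partner of OCT4, stood at 49.7, 29.2 and 31.1 FPKM in EpiSCs and at 0.671, 0.951 and 0.602 FPKM in MEFs. Nanog stood at 36, 25.2 and 26.6 FPKM in EpiSCs, and no MEF library exceeded 0.0612 FPKM. Sall4, a zinc finger factor of the same network, stood at 45.2, 21.3 and 22.2 FPKM in EpiSCs and at or below 0.0175 FPKM in MEFs. The groups did not overlap for any of these factors, as for 12081 of the 16358 tested genes. EpiSC replicate 1 was the highest EpiSC library for each of Sox2, Nanog and Sall4 and the lowest for Pou5f1. The smallest called difference of a tested core factor was that of Zfp281, at 22.7, 11.6 and 10.7 FPKM in EpiSCs and 8.39, 8.51 and 8.25 FPKM in MEFs (0.69, SE 0.20, adjusted p = 0.00981), a call that was lost with median-of-ratios scaling (adjusted p = 0.0956) and with EpiSC and MEF libraries alone (0.0869). The one gene not called, Nr5a2, did not exceed 0.102 FPKM in any library of either group.

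Genes of the primed state followed, with 17 of 19 tested called higher, 2 lower and a median difference of 3.68. Otx2, a homeobox factor of the post-implantation epiblast, stood at 76.6, 98 and 105 FPKM in EpiSCs and at 0, 0.0268 and 0 FPKM in MEFs. Fgf5, the growth factor gene that marks the primed epiblast, stood at 47.7, 30.9 and 30.1 FPKM in EpiSCs and 0.589, 0.498 and 0.591 FPKM in MEFs, a difference of 4.55 (SE 0.14, adjusted p = 1.37e-10). T, the brachyury gene of the primitive streak, was present at 7.99, 6.69 and 7.24 FPKM in EpiSCs and listed at 0 in MEFs, and Eomes, another T-box gene of the streak, stood at 7.21, 5.21 and 5.53 FPKM in EpiSCs and 1.41, 1.45 and 1.75 FPKM in MEFs. The 2 members called lower were Sox4 (36.9, 27.1 and 30.3 FPKM in EpiSCs against 55.3, 59.3 and 57.2 FPKM in MEFs) and Fst, the activin-binding follistatin gene (1.71, 1.77 and 2.25 FPKM in EpiSCs against 48.9, 48 and 53.9 FPKM in MEFs). The naive genes, by contrast, did not move one way. Of 20 tested, 7 were called higher and 4 lower, with a median of 0.04. Among 10 transcription factors 2 were higher and 4 lower. Their summed level was 5.79 to 11.3 FPKM in EpiSCs and 33.8 to 36.2 FPKM in MEFs. Among 10 other naive genes 5 were higher and none lower. The sum of these was 42.5 to 43.5 FPKM in EpiSCs and 6.7 to 6.95 FPKM in MEFs. Zfp42 (Rex1) did not exceed 0.0922 FPKM in any EpiSC or MEF library and averaged 318 ± 1.37 FPKM in ESCs (SD, n = 3). Klf4 was lower in EpiSCs, at 0.466, 1.08 and 1.3 FPKM in EpiSCs and 12.7, 13.3 and 13.3 FPKM in MEFs, and so were Klf5, Tbx3 and Klf2. The call of Klf2 was lost when any 1 MEF library was left out (adjusted p 0.0534 to 0.0859).

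**Figure D1:**
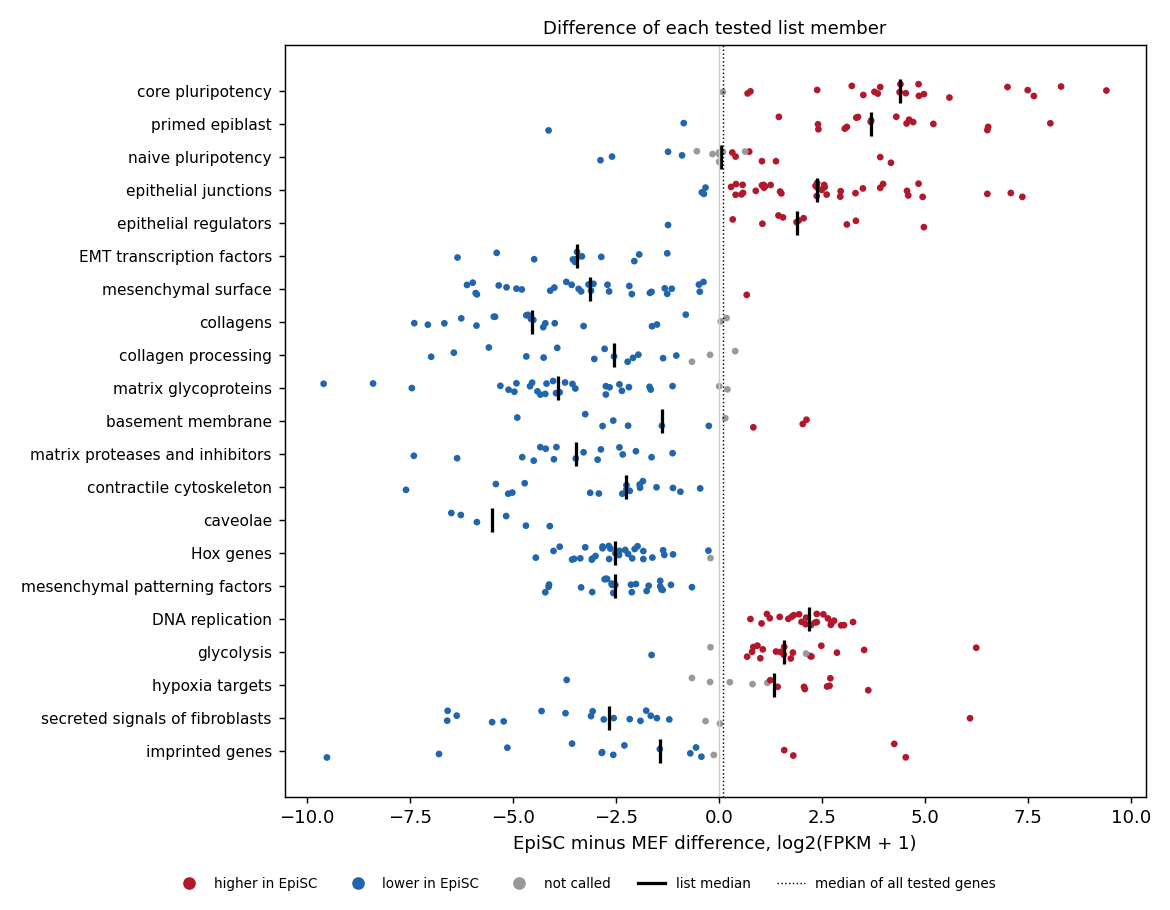
EpiSC minus MEF difference on the log2(FPKM + 1) scale (horizontal axis) of each tested member of 21 gene lists (rows). Points are genes, red where called higher in EpiSCs, blue where called lower and grey where not called; black bars are list medians and the dotted line is the median of all tested genes, 0.105. The medians run between 4.40 for core pluripotency genes and -5.52 for caveolae genes.

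Epithelial junction genes were higher in EpiSCs: of 38 tested, 35 were called higher and 3 lower, with a median difference of 2.37 (32 higher and 3 lower with median-of-ratios scaling). Cdh1, the E-cadherin gene at chr8:106603351-106670246, stood at 179, 117 and 117 FPKM in EpiSCs and at 0, 0.0117 and 0 FPKM in MEFs. Epcam, an epithelial adhesion molecule gene, stood at 205, 171 and 177 FPKM in EpiSCs and at 0.102, 0.162 and 0.113 FPKM in MEFs. Cldn6, a claudin gene of embryonic epithelia, stood at 142, 118 and 123 FPKM in EpiSCs and at 0.453, 0.398 and 0.374 FPKM in MEFs. The differences of these 3 genes were 7.08, 7.36 and 6.51 (SE 0.14, 0.07 and 0.10), and the groups lay far apart for each.

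Among tight junction genes all 11 tested were called higher, and they differed widely among themselves. Tjp1 (ZO-1) was present in both groups, at 38.2, 32.2 and 31.4 FPKM in EpiSCs and 26.2, 24.3 and 25.7 FPKM in MEFs, whereas Tjp3 (ZO-3) stood at 6.6, 22.6 and 21.8 FPKM in EpiSCs and at or below 0.0324 FPKM in MEFs. The scaffold gene Cgn (cingulin) and the occludin gene Ocln differed by 3.49 and 2.38. Among polarity genes 6 of 7 were called higher, led by Crb3, the gene of the small apical Crumbs protein, at 32.1, 26.7 and 27.7 FPKM in EpiSCs and 0, 0 and 0.117 FPKM in MEFs. Among desmosome genes 7 of 8 were called higher, the largest difference being 2.61 for the plakophilin gene Pkp2. All 6 tested genes of epithelial sorting and surface proteases were called higher, among them Rab25, a recycling-endosome GTPase gene, at 27.1, 37.8 and 38.6 FPKM in EpiSCs and 0.15, 0.111 and 0.158 FPKM in MEFs. The protease inhibitor gene Spint2 stood at 101, 96.9 and 99 FPKM in EpiSCs and 3.12, 3.06 and 3.28 FPKM in MEFs. The 3 members called lower were small in size: Ctnnd1 (p120-catenin) by -0.33, the polarity scaffold gene Mpp5 by -0.37 and Jup (plakoglobin) by -0.42. Catenins and plakoglobin are also used by the cadherins of mesenchymal cells. The call of Mpp5 was lost without EpiSC replicate 2 or 3 (adjusted p 0.0874 and 0.0927) or MEF replicate 1 or 2 (0.0618 and 0.0532). The calls lost with median-of-ratios scaling were those of Tjp1, the polarity gene Pard3 and the periplakin gene Ppl.

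The 300 bases around the annotated start of these genes (250 before and 50 after, from RefSeq, build GRCm38.p6) were searched for CAGGTG on either strand, which reads CACCTG on the other. That hexamer is the E-box that Zeb and Snail factors are known to bind. Of the 25 epithelial junction genes with a window, 19 (76%) held it at least once, against 21.1% of the 10942 tested genes with a window and 20.2% of all 32851 windows. The share was 25% of 16 core pluripotency genes, 10% of 20 DNA replication genes, 12.5% of 16 contractile genes, 11.8% of 17 collagen genes and 20% of 20 mesenchymal surface genes. Among all genes with a window it was 22.7% of those called higher and 18.8% of those called lower in EpiSCs. A gene with several windows counted once if any held the hexamer. The epithelial junction list has 40 genes, and those without a window, Cdh1 among them, were not searched. Its members were chosen with earlier results of these data known. The shares describe letters in a window and say nothing of binding in these cells. Shown here are 4 windows, with each hexamer in capitals, chosen for their number of hexamers or the size of the gene's difference. They are chr17:57061951-57062250 (plus strand) for Crb3, chr9:21312284-21312583 (minus strand) for Ap1m2, a subunit gene of the epithelial sorting adaptor, chr17:87635729-87636028 (plus strand) for Epcam and chr3:88548230-88548529 (minus strand) for Rab25, each written 5′ to 3′ on the gene's strand.
Crb3: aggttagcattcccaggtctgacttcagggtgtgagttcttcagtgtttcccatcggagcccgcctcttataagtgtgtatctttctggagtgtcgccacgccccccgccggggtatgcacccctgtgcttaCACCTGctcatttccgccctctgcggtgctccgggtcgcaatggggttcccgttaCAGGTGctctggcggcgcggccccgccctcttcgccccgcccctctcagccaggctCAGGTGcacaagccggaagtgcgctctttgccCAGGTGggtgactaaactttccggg
Ap1m2: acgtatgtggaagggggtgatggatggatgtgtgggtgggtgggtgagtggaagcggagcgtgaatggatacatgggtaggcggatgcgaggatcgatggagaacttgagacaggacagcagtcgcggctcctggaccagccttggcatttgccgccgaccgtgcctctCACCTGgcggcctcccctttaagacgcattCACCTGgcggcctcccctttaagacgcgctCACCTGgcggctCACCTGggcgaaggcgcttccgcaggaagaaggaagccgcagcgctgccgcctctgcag
Epcam: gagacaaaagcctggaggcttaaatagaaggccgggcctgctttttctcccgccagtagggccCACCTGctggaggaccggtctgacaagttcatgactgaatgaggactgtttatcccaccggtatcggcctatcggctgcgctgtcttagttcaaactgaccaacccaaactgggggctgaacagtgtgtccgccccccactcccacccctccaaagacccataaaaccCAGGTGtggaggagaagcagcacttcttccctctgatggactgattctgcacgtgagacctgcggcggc
Rab25: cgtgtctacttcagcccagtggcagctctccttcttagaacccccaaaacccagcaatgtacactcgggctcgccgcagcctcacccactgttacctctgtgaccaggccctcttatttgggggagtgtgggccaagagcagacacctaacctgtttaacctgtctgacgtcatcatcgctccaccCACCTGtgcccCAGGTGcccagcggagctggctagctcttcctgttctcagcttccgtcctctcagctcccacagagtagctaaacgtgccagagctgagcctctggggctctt
Crb3 and Ap1m2 hold 4 hexamers each and Epcam and Rab25 hold 2 each. In the Epcam window they begin 187 and 19 bases before the start, and in the Rab25 window 64 and 53 bases before it. Ap1m2 stood at 5.5, 7.58 and 7.54 FPKM in EpiSCs and at 0, 0.0307 and 0 FPKM in MEFs.

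Simple epithelial keratins split. Krt8 and Krt18, which pair to form the first keratin filaments of the embryo, were higher: Krt8 stood at 177, 189 and 187 FPKM in EpiSCs and 1.54, 1.53 and 1.41 FPKM in MEFs, and Krt18 at 176, 229 and 228 FPKM in EpiSCs and 10.5, 9.64 and 11.8 FPKM in MEFs. Krt19 and Krt7 were lower, Krt19 at 0.13, 1.37 and 0.971 FPKM in EpiSCs and 20.5, 22 and 21.8 FPKM in MEFs. Factors that keep epithelial identity were called higher in 10 of 11 cases, with a median of 1.88. Grhl2, a transcription factor gene of epithelial junctions, stood at 9.42, 6.53 and 7.25 FPKM in EpiSCs and at or below 0.0211 FPKM in MEFs, and Esrp1, which sets epithelial splicing, stood at 37.8, 27.2 and 27.2 FPKM in EpiSCs and was listed at 0 in MEFs. Elf3, Grhl3 and Tfap2c were lowest in EpiSC replicate 1, Elf3 at 4.54, 12.6 and 12.4 FPKM in EpiSCs and 0 in all MEF libraries. Klf5 was the member called lower.

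Transcription factors that drive mesenchymal identity were lower in EpiSCs in all 12 cases tested, with a median of -3.46. Zeb1 stood at 0.691, 0.671 and 0.698 FPKM in EpiSCs and at 17.6, 21.1 and 17.7 FPKM in MEFs (-3.55, SE 0.11, adjusted p = 1.19e-10). Zeb2 stood at 0.205, 0.485 and 0.293 FPKM in EpiSCs and at 13.8, 12 and 15.3 FPKM in MEFs. Snai1 stood at 0.996, 1.89 and 2.2 FPKM in EpiSCs and at 29.9, 26 and 30.9 FPKM in MEFs, and Snai2 at 0.118, 0.504 and 0.682 FPKM in EpiSCs and at 30.1, 31 and 31.4 FPKM in MEFs. No EpiSC library came near the MEF level of these 4 repressors. The largest difference of the list was that of Prrx1, a homeobox gene of limb and craniofacial mesenchyme, at 0, 0.0519 and 0.0545 FPKM in EpiSCs and 82.5, 82.1 and 85.5 FPKM in MEFs (-6.35, SE 0.06). Twist1 and Twist2 differed by -3.45 and -5.40.

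**Figure D2:**
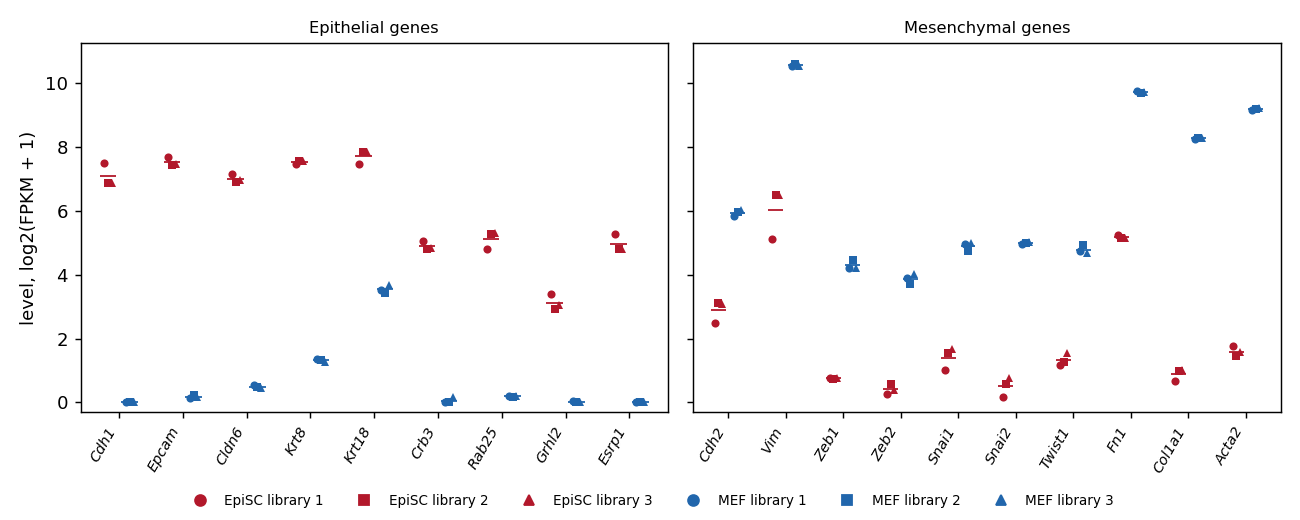
Levels, as log2(FPKM + 1), of 9 epithelial genes (left) and 10 mesenchymal genes (right) in 3 EpiSC libraries (red) and 3 MEF libraries (blue). Each symbol is a library and each bar the group mean. EpiSC and MEF values do not overlap for any gene shown, as for 12081 of the 16358 tested genes. Cdh1 stands at 117 to 179 FPKM in EpiSCs, and Vim at 33.8 to 89.1 FPKM in EpiSCs against 1489 to 1568 FPKM in MEFs.

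The surface of the cells differed in the same direction, with 29 of 30 tested mesenchymal surface genes called lower in EpiSCs and a median of -3.14. Cdh2, the N-cadherin gene, stood at 4.66, 7.56 and 7.45 FPKM in EpiSCs and at 56.7, 60.9 and 64.4 FPKM in MEFs. The platelet-derived growth factor receptor gene Pdgfra stood at 0.0749, 0.103 and 0.104 FPKM in EpiSCs and at 32, 26.6 and 29.8 FPKM in MEFs, and Thy1, a fibroblast surface glycoprotein gene, at 8.37, 6.83 and 6.75 FPKM in EpiSCs and at 77.7, 65.5 and 78.6 FPKM in MEFs. The hyaluronan receptor gene Cd44 had the largest difference, -6.12. Mcam was the one gene called higher, at 19.1, 31.5 and 29.7 FPKM in EpiSCs and 16, 15.2 and 17.1 FPKM in MEFs, and this call was lost with median-of-ratios scaling. Anpep was called lower by -0.49, but without EpiSC replicate 1 its adjusted p was 0.116. Of 10 intermediate filament, S100 and annexin genes, 9 were lower in EpiSCs. Vim, the vimentin gene, stood at 33.8, 89 and 89.1 FPKM in EpiSCs and at 1489, 1568 and 1500 FPKM in MEFs (-4.53, SE 0.29, adjusted p = 5.43e-08). Nes, the intermediate filament gene of neural progenitors, was not called, at 54.2, 38.3 and 37.5 FPKM in EpiSCs and 36.8, 37.8 and 39.6 FPKM in MEFs.

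Collagen genes, which encode the main fibres and sheets of the extracellular matrix, were called lower in 18 of 20 tested cases and higher in none, with a median of -4.54. Col1a1 and Col1a2, the chains of type I collagen, stood at 0.574, 0.979 and 1.02 FPKM and at 1.69, 2.01 and 2.11 FPKM in EpiSCs, against 307, 312 and 311 FPKM and 404, 387 and 392 FPKM in MEFs. Differences of the fibrillar chains ranged between -7.40 for Col1a1 and -1.63 for Col5a3. The basement membrane chains Col4a1 and Col4a2 were lower too, Col4a1 at 9.94, 9.62 and 9.65 FPKM in EpiSCs and 165, 171 and 174 FPKM in MEFs. Col18a1, a basement membrane collagen of epithelia and vessels, was not called, at 57.3, 35.6 and 34.8 FPKM in EpiSCs and 39, 35.4 and 35.1 FPKM in MEFs. Among enzymes that process collagen, 14 of 17 were lower. Lox, the cross-linking lysyl oxidase gene, stood at 0, 0 and 0.011 FPKM in EpiSCs and at 123, 124 and 134 FPKM in MEFs, and Serpinh1, the collagen chaperone gene HSP47, at 97.3, 92.7 and 96.1 FPKM in EpiSCs and at 373, 376 and 371 FPKM in MEFs. The 3 not called were the hydroxylase genes P4ha1, P4ha2 and Plod2, all of them far lower in EpiSC replicate 1 than in the other EpiSC libraries. P4ha2 stood at 5.78, 66.1 and 70.5 FPKM in EpiSCs and 36.3, 35.9 and 36.2 FPKM in MEFs, and without EpiSC replicate 1 both P4ha2 and Plod2 were called higher, by 0.90 and 0.93.

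Matrix glycoproteins and proteoglycans were lower in 28 of 30 cases, with a median of -3.91. Fn1, the fibronectin gene, stood at 37.1, 34.9 and 34.9 FPKM in EpiSCs and at 864, 836 and 850 FPKM in MEFs (-4.54, SE 0.05, adjusted p = 4.91e-14). Sparc, a collagen-binding glycoprotein gene, stood at 97.2, 67.6 and 73.4 FPKM in EpiSCs and at 537, 536 and 528 FPKM in MEFs. Fbln1 and Mfap4 were not called. Matrix proteases and their inhibitors were lower in all 17 cases tested, with a median of -3.48. Mmp2, a gelatinase gene, stood at 6.06, 6.6 and 6.88 FPKM in EpiSCs and at 87.8, 77 and 83.7 FPKM in MEFs, and Timp1, an inhibitor of such enzymes, at 10, 10.5 and 11.5 FPKM in EpiSCs and at 186, 178 and 195 FPKM in MEFs.

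The basement membrane list did not move one way: 3 genes were higher, 7 lower and 1 not called. Lama5, the laminin alpha chain of many epithelial basement membranes, stood at 60.4, 59.6 and 59.7 FPKM in EpiSCs and at 13, 13.4 and 12.6 FPKM in MEFs (2.12, SE 0.05, adjusted p = 1.09e-11). Lama2 and Lama4, alpha chains of muscle and vessel basement membranes, were lower, Lama2 being listed at 0 in EpiSCs and at 8.12, 8.58 and 8.87 FPKM in MEFs. The 2 nidogen genes differed in opposite directions. Nid1 stood at 4.05, 8.3 and 7.2 FPKM in EpiSCs and at 217, 214 and 216 FPKM in MEFs, and Nid2 at 30.8, 53.9 and 52.7 FPKM in EpiSCs and at 9.63, 10.3 and 10.4 FPKM in MEFs. Agrn, the agrin gene, was higher by 0.83 (adjusted p = 0.0235) in the fit of all libraries. Its call was lost with median-of-ratios scaling (adjusted p = 0.126), in a fit of EpiSC and MEF libraries alone (0.135) and without MEF replicate 1 (0.0542) or MEF replicate 3 (0.0618), and without EpiSC replicate 1 the difference was 0.36.

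Contractile cytoskeleton genes were lower in EpiSCs in all 18 cases, with a median of -2.25, and caveolae genes in all 6 cases, with a median of -5.52. Acta2, the smooth muscle actin gene of myofibroblasts, stood at 2.39, 1.71 and 1.96 FPKM in EpiSCs and at 568, 584 and 592 FPKM in MEFs. Tagln (SM22) stood at 11.2, 10.1 and 9.08 FPKM in EpiSCs and at 463, 468 and 489 FPKM in MEFs. Flna, the gene of the actin cross-linker filamin A, stood at 168, 117 and 116 FPKM in EpiSCs and at 373, 377 and 385 FPKM in MEFs, and Actn4 differed by -1.12. The 18 contractile list members include Lmna, the gene of the nuclear lamins A and C, which also counts among the 16 with a promoter window below. Lmna differed by -5.12, at 7.81, 9.03 and 8.66 FPKM in EpiSCs and 339, 336 and 314 FPKM in MEFs. Cav1, the coat protein gene of caveolae, stood at 1.14, 1.07 and 0.964 FPKM in EpiSCs and at 150, 163 and 159 FPKM in MEFs. The promoter windows of contractile genes were searched for the CArG box, the site of serum response factor, read as CC, 6 bases of A or T, and GG. An exact match was held by 3 of 16 contractile genes (Myl9, Cnn2 and Vcl), or 18.8%, against 1.67% of all tested genes with a window. Stretches that differ from it by 1 base, such as ccctatatgg in the Acta2 window, were not counted, so a window without a match may still hold a site. The windows of Myl9, a myosin light chain gene, at chr2:156775214-156775513, and Cnn2, the calponin 2 gene, at chr10:79988350-79988649, both on the plus strand, are shown with the CArG box in capitals. In the Myl9 window capitals also mark a CAGGTG near its 3′ end.
Myl9: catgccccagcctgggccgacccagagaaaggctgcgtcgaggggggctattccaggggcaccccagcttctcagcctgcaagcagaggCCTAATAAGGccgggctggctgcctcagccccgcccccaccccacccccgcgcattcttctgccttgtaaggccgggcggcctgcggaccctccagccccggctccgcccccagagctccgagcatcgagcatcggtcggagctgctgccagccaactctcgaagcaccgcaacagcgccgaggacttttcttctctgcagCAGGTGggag
Cnn2: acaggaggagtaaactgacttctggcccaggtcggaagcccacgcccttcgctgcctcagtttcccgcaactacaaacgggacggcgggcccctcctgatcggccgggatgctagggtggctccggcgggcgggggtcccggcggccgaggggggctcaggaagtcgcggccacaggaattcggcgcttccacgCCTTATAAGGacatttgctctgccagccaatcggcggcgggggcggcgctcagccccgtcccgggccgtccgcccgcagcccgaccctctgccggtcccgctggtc
The CArG box begins 161 bases before the start of Myl9 and 56 bases before that of Cnn2. Myl9 stood at 6.72, 2.63 and 3.14 FPKM in EpiSCs and at 128, 126 and 130 FPKM in MEFs, and Cnn2 at 53.8, 31 and 33.3 FPKM in EpiSCs and at 194, 195 and 208 FPKM in MEFs. The other motifs searched were the octamer ATGCAAAT, held by 1 of 25 epithelial junction genes and 0 of 16 contractile genes, and AACCGGTT, the site of Grainyhead-like factors, held by none of either. Among tested genes with a window, 1.78% and 0.302% held these sites.

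Hox genes, which give cells their position along the body, were lower in EpiSCs in 30 of 31 tested cases, with a median of -2.52. Their summed level was 2.67 to 5.34 FPKM in EpiSCs and 198 to 201 FPKM in MEFs. Hoxc6 had the highest level in MEFs, at 0.109, 0.167 and 0.113 FPKM in EpiSCs and 24.4, 22.9 and 23.8 FPKM in MEFs (-4.45, SE 0.07, adjusted p = 8.72e-13). MEFs held members of all 4 clusters. Hoxb2, from the anterior end of its cluster, stood at 0, 0 and 0.029 FPKM in EpiSCs and at 4.7, 4.99 and 4.71 FPKM in MEFs, and Hoxa13 and Hoxd13, from the posterior ends and known from the hand and foot, reached 2.96 to 3.94 and 9.89 to 11.8 FPKM in MEFs. Hoxc4 was among the few Hox genes to reach 1 FPKM in an EpiSC library, at 0.681, 1.23 and 1.46 FPKM in EpiSCs and 4.2, 4.21 and 4.72 FPKM in MEFs. Hoxc13 was called lower by -0.26, but without EpiSC replicate 1 its adjusted p was 0.136. Other patterning factors of mesenchyme were lower in all 23 cases tested, among them Tbx5, a T-box gene of the forelimb, and Pitx1, a homeobox gene of the hindlimb. Tbx5 was listed at 0 in EpiSCs and at 2.21, 2.29 and 2.34 FPKM in MEFs, and Pitx1 stood at 0, 0 and 0.0256 FPKM in EpiSCs and at 5.72, 5.43 and 5.85 FPKM in MEFs.

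**Figure D3:**
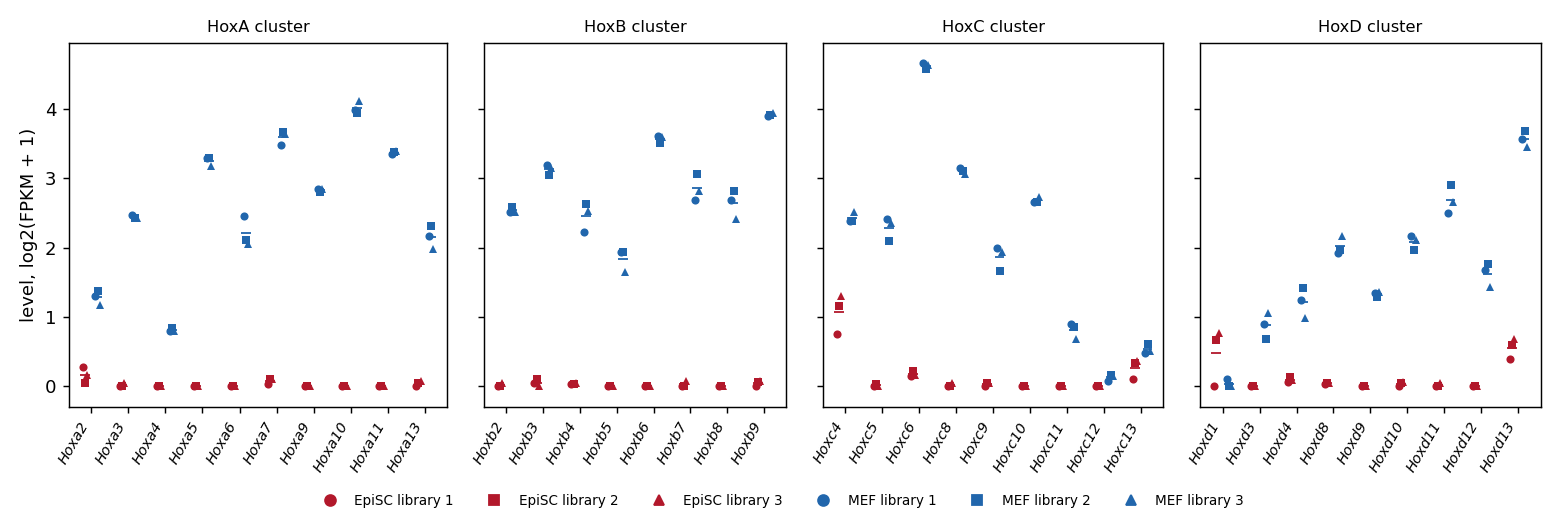
Levels, as log2(FPKM + 1), of 36 Hox genes by cluster, in 3 EpiSC libraries (red) and 3 MEF libraries (blue), ordered within each cluster by number. Each symbol is a library and each bar the group mean. EpiSC libraries lie at or near 0 for nearly all genes, with Hoxc4, Hoxd1 and Hoxd13 highest, while MEF libraries reach 14.3 to 16.4 FPKM for Hoxa10.

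Signalling genes divided by ligand and branch. Of 15 tested genes of the TGF-beta branch 12 were lower and 2 higher in EpiSCs, and of 12 tested genes of the Nodal branch 7 were higher and 1 lower. Nodal stood at 32.8, 19.4 and 19.9 FPKM in EpiSCs and its co-receptor gene Tdgf1 at 176, 208 and 211 FPKM, and both were listed at 0 in MEFs. Foxh1, the DNA-binding partner of the SMADs in Nodal signalling, stood at 69.3, 71.6 and 72.8 FPKM in EpiSCs and at 0.0511, 0 and 0 FPKM in MEFs. The feedback inhibitor gene Lefty1 stood at 151, 32.8 and 35.7 FPKM in EpiSCs and at 1.46, 0.965 and 1.17 FPKM in MEFs. In the TGF-beta branch, the receptor gene Tgfbr2 stood at 0.794, 1.37 and 1.4 FPKM in EpiSCs and at 28.5, 26 and 28 FPKM in MEFs. Inhba, which encodes the activin A subunit, stood at 0.675, 0.118 and 0.26 FPKM in EpiSCs and at 47.3, 49.8 and 53.5 FPKM in MEFs. It was counted with the TGF-beta ligands, although the activin receptor genes Acvr1b, Acvr2a and Acvr2b were counted in the Nodal branch, so the lists do not part the 2 branches cleanly. The SMAD inhibitor genes Skil and Smad7 were higher by 1.76 and 0.54, and Smad7 was not called with median-of-ratios scaling.

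FGF and Wnt genes differed by member, not as a list. FGF ligands changed over: Fgf4, Fgf5, Fgf8 and Fgf15 were higher in EpiSCs, and Fgf2, Fgf7 and Fgf10 were lower. Fgf7 and Fgf10, which fibroblasts send to neighbouring epithelia, were listed at 0 in EpiSCs and stood at 34.7, 31.5 and 36.4 FPKM and at 15.1, 14.9 and 16.7 FPKM in MEFs. The ERK target gene Dusp6 was high in both groups, at 104, 114 and 120 FPKM in EpiSCs and 75.6, 77 and 76.8 FPKM in MEFs. Over the list, 8 of 18 tested genes were higher and 8 lower. For Wnt, 9 of 20 tested genes were higher and 7 lower. Wnt3 and Wnt8a, ligands of the primitive streak, stood at 5.94, 9.01 and 8.87 FPKM and at 5.3, 3.87 and 4.29 FPKM in EpiSCs and were listed at 0 in MEFs, whereas Wnt5a, a ligand of limb and tail mesenchyme, stood at 0.168, 0.0858 and 0.0683 FPKM in EpiSCs and at 25.6, 27.3 and 26.9 FPKM in MEFs. The feedback gene Axin2 was higher by 1.28, at 3.01, 2.96 and 2.64 FPKM in EpiSCs and 0.379, 0.978 and 0.474 FPKM in MEFs.

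Secreted signals of fibroblasts were lower in 17 of 20 tested cases, with a median of -2.68. Ccl2, a monocyte attractant gene, was listed at 0 in EpiSCs and stood at 94, 94 and 97.5 FPKM in MEFs, and Csf1, the macrophage growth factor gene, stood at 1.3, 0.987 and 1.25 FPKM in EpiSCs and at 78.9, 76.1 and 86.9 FPKM in MEFs. Cxcl12 stood at 3.05, 6.11 and 6.13 FPKM in EpiSCs and at 50.5, 47.1 and 52.6 FPKM in MEFs. The exception was Igfbp2, an insulin-like growth factor binding protein gene, at 226, 252 and 272 FPKM in EpiSCs and 2.48, 3.45 and 2.21 FPKM in MEFs (6.09, SE 0.12, adjusted p = 2.54e-12). The leukaemia inhibitory factor gene Lif was not called.

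All 24 tested DNA replication genes were higher in EpiSCs, with a median difference of 2.17. Mcm2, a subunit of the replicative helicase, stood at 141, 148 and 155 FPKM in EpiSCs and at 20.9, 20.8 and 20 FPKM in MEFs, and Mcm10, a factor that starts the fork, had the largest difference (3.25, SE 0.07, adjusted p = 1.13e-11). Pcna, the sliding clamp gene, stood at 239, 217 and 223 FPKM in EpiSCs and at 50.7, 51.3 and 54.3 FPKM in MEFs. The smallest difference was that of Rrm2, the ribonucleotide reductase gene, 0.76. The G1 regulators went in both directions, with 5 of 17 higher and 10 lower. All 3 D-type cyclin genes were lower: Ccnd1 stood at 61.7, 28 and 28.1 FPKM in EpiSCs and at 392, 381 and 384 FPKM in MEFs, and Ccnd2 at 5.66, 7.54 and 7.6 FPKM in EpiSCs and at 165, 165 and 168 FPKM in MEFs. Ccne1, the cyclin E1 gene, was higher, at 75.5, 49 and 50.9 FPKM in EpiSCs and 19, 18.8 and 18.8 FPKM in MEFs. Of the inhibitors, Cdkn2a, the locus of p16 and p19ARF, stood at 1.44, 2.25 and 2.91 FPKM in EpiSCs and at 128, 116 and 126 FPKM in MEFs, and the neighbouring Cdkn2b differed by -4.95. Cdkn1b (p27) was the one inhibitor gene called higher, at 19, 33.9 and 35 FPKM in EpiSCs and 8.79, 9.05 and 9.14 FPKM in MEFs.

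**Figure D4:**
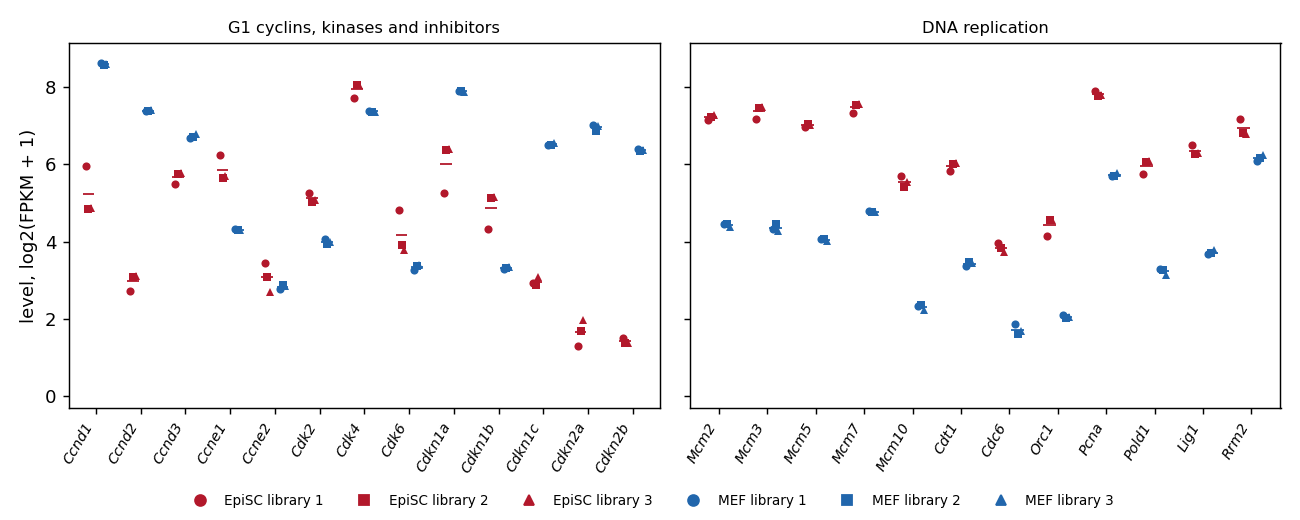
Levels, as log2(FPKM + 1), of 13 G1 regulators (left) and 12 DNA replication genes (right) in 3 EpiSC libraries (red) and 3 MEF libraries (blue). Each symbol is a library and each bar the group mean. Every replication gene shown is higher in EpiSCs, while D-type cyclins and the inhibitors Cdkn1a, Cdkn1c, Cdkn2a and Cdkn2b are lower; Pcna stands at 217 to 239 FPKM in EpiSCs and 50.7 to 54.3 FPKM in MEFs.

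The MYC genes differed by paralog. Mycn stood at 39.8, 20.2 and 18.8 FPKM in EpiSCs and at 0.589, 0.434 and 0.59 FPKM in MEFs, while Myc was not called, at 68.4, 33.2 and 33.1 FPKM in EpiSCs and 40.2, 38.2 and 39.2 FPKM in MEFs. Without EpiSC replicate 1 Myc was lower by -0.23 (adjusted p = 0.0294). Of the p53 target genes 4 were higher and 7 lower among 15 tested, against 2 and 9 with median-of-ratios scaling, 2 and 6 with EpiSC and MEF libraries alone, and 6 and 7 without EpiSC replicate 1. Bbc3, the PUMA gene, stood at 18.1, 60.9 and 66.2 FPKM in EpiSCs and at 11.3, 11.8 and 10.1 FPKM in MEFs, whereas Cdkn1a (p21) stood at 37.5, 81.3 and 84.1 FPKM in EpiSCs and at 238, 237 and 233 FPKM in MEFs.

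The Lin28 proteins block the maturation of let-7 microRNAs, which repress many fetal transcripts. Lin28a stood at 162, 111 and 114 FPKM in EpiSCs and was listed at 0 in MEFs, and Lin28b stood at 26.5, 16.5 and 16 FPKM in EpiSCs and at 0.198, 0.173 and 0.191 FPKM in MEFs. Of 7 tested let-7 target transcripts 4 were higher and 2 lower. Hmga2, one of the best known let-7 targets, was lower, at 41.4, 25.9 and 25.4 FPKM in EpiSCs and 431, 437 and 439 FPKM in MEFs (-3.81, SE 0.15, adjusted p = 8.68e-10). Igf2bp1, another target, was higher, at 71.1, 38.3 and 38.8 FPKM in EpiSCs and 10.5, 10.9 and 10.9 FPKM in MEFs. The microRNAs themselves were not measured in this table of genes.

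DNA methylation enzymes were mostly higher, 6 of 9 tested with 1 lower. Besides Dnmt3b, the maintenance gene Dnmt1 stood at 66.5, 69.4 and 67.6 FPKM in EpiSCs and at 27.3, 27.3 and 27.4 FPKM in MEFs, and its recruiter Uhrf1 at 96.5, 95 and 93.9 FPKM in EpiSCs and at 19.1, 20.4 and 20.3 FPKM in MEFs. The dioxygenase gene Tet1 was higher by 4.11. Tet2 was not called, at 0.561, 7.74 and 8.52 FPKM in EpiSCs and 6.3, 6.35 and 6.46 FPKM in MEFs, and Tet3 was called lower by -0.39, a call that was lost without EpiSC replicate 1 (adjusted p = 0.0708) or without MEF replicate 1 or 3 (0.0568 and 0.0573). Imprinted genes were lower in 12 of 17 cases and higher in 4. Igf2, the paternally expressed fetal growth factor gene next to H19, stood at 3.03, 6.2 and 6.42 FPKM in EpiSCs and at 676, 654 and 674 FPKM in MEFs. Snrpn and Phlda2 were higher, Snrpn at 193, 227 and 231 FPKM in EpiSCs and 10.2, 10.5 and 10.6 FPKM in MEFs, and Phlda2, a placental growth regulator gene, at 35, 41.4 and 40.1 FPKM in EpiSCs and 0.862, 0.546 and 0.772 FPKM in MEFs. Meg3 and Rian, neighbouring maternally expressed noncoding RNAs, were high in both groups. Meg3 was lower by -0.43, and Rian was not called, at 193, 175 and 186 FPKM in EpiSCs and 206, 201 and 199 FPKM in MEFs.

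Glycolysis genes were higher in EpiSCs in 18 of 21 tested cases, with 1 lower and a median of 1.57 (15 higher and 1 lower with median-of-ratios scaling, which ended the calls of Pfkp, Tpi1 and Gapdh). Slc2a3 (GLUT3), a high-affinity glucose transporter gene, stood at 110, 572 and 580 FPKM in EpiSCs and at 3.34, 3.42 and 3.44 FPKM in MEFs (6.24, SE 0.49, adjusted p = 3.54e-07). Slc2a1 (GLUT1) stood at 90.4, 494 and 508 FPKM in EpiSCs and at 60.6, 60.2 and 60.4 FPKM in MEFs. Ldha, the lactate dehydrogenase gene, stood at 725, 1617 and 1631 FPKM in EpiSCs and at 592, 606 and 584 FPKM in MEFs, and Pkm, the muscle pyruvate kinase gene, at 1156, 1862 and 1875 FPKM in EpiSCs and at 828, 843 and 834 FPKM in MEFs. EpiSC replicate 1 was the lowest EpiSC library for all 4 genes and still above every MEF library. The hexokinase genes changed over, Hk2 being higher by 2.48 and Hk1 lower by -1.64. The values of Gapdh (31.9, 50 and 190 FPKM in EpiSCs and 19, 19.6 and 20 FPKM in MEFs) and Aldoa are uncertain: both genes have near-identical copies elsewhere in the genome between which reads can be split, and the name Aldoa stands more than once in the table.

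Genes induced by hypoxia-inducible factors were among those for which EpiSC replicate 1 stood far apart. Of 14 tested, 8 were called higher, 1 lower and 5 were not called, with a median of 1.33, and without EpiSC replicate 1 12 were called higher and 1 lower, with a median of 1.99. In a fit of EpiSC and MEF libraries alone 4 were called higher and 1 lower. Their summed level was 256 FPKM in the lowest and 1775 FPKM in the highest EpiSC library, and 357 to 360 FPKM in MEFs. Ndrg1 stood at 12.2, 189 and 198 FPKM in EpiSCs and at 11.8, 11.2 and 11.3 FPKM in MEFs, and Egln3, a prolyl hydroxylase gene that acts on these factors, at 15, 136 and 137 FPKM in EpiSCs and at 15.1, 15.4 and 14.7 FPKM in MEFs. For both, EpiSC replicate 1 lay at the MEF level and the other EpiSC libraries far above it. Vegfa was not called, at 16.6, 60.5 and 61.4 FPKM in EpiSCs and 34.5, 32.4 and 32 FPKM in MEFs, so that EpiSC replicate 1 lay below and replicates 2 and 3 above every MEF library. Adm, the adrenomedullin gene, was the member called lower, at 0, 5.07 and 4.38 FPKM in EpiSCs and 39, 37.9 and 44.9 FPKM in MEFs.

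**Figure D5:**
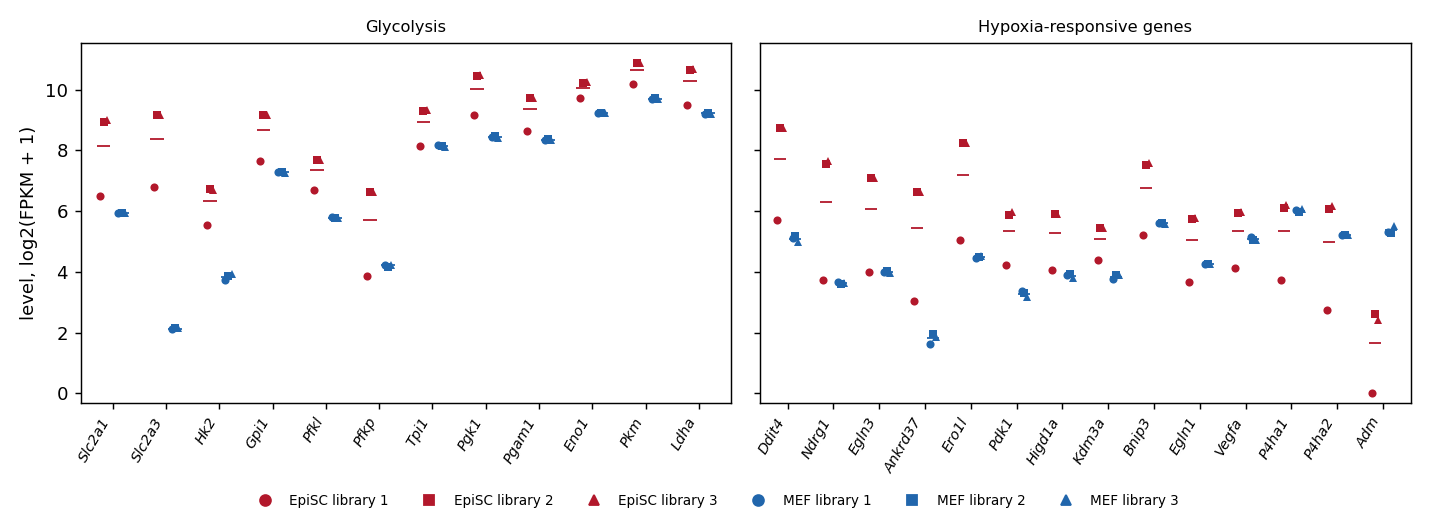
Levels, as log2(FPKM + 1), of 12 glycolysis genes (left) and 14 hypoxia-responsive genes (right) in 3 EpiSC libraries (red) and 3 MEF libraries (blue). Each symbol is a library and each bar the group mean. EpiSC library 1 lies below EpiSC libraries 2 and 3 for every gene shown, and at the MEF level for genes such as Ndrg1 (12.2 FPKM against 11.2 to 11.8 FPKM in MEFs).

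Sterol synthesis genes were higher in 11 of 15 tested cases and lower in 2 (10 and 4 with median-of-ratios scaling). Dhcr7, the last enzyme of cholesterol synthesis, had the largest difference, at 66, 70.6 and 72.1 FPKM in EpiSCs and 10.6, 9.59 and 7.9 FPKM in MEFs. Of the 13 protein-coding genes of the mitochondrial genome 8 were called lower and none higher, with a median of -0.33, and with median-of-ratios scaling all 13 were lower. Antigen presentation genes differed by gene. B2m, the light chain gene of MHC class I, stood at 22.1, 19.1 and 22.1 FPKM in EpiSCs and at 289, 276 and 290 FPKM in MEFs (-3.69, SE 0.07, adjusted p = 1.83e-12), whereas Psmb9, an immunoproteasome subunit gene, stood at 3.86, 4.69 and 5.9 FPKM in EpiSCs and at 0.328, 0.155 and 0.202 FPKM in MEFs. Over the list, 7 of 12 tested genes were higher and 4 lower, and 3 were higher and 4 lower with median-of-ratios scaling. The heavy chain genes H2-K1 and H2-D1 are near-identical in parts and their values are uncertain. Interferon and RNA sensing genes were lower in 14 of 19 tested cases, with a median of -1.13. The RNA sensor gene Ddx58 (RIG-I) stood at 1.62, 1.44 and 0.887 FPKM in EpiSCs and at 8.39, 9.77 and 9.23 FPKM in MEFs. Irf1, Bst2 and Oasl2 were higher in EpiSCs.

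The ESC libraries of the same table place these differences. Pou5f1 averaged 677 ± 88.2 FPKM in EpiSCs and 779 ± 3.4 FPKM in ESCs (SD, n = 3 each), a limma difference of -0.21 (adjusted p = 0.0412). Lin28a averaged 129 ± 28.9 FPKM in EpiSCs and 117 ± 3.04 FPKM in ESCs and was not called. Krt8 averaged 184 ± 6.61 FPKM in EpiSCs and 6.47 ± 0.371 FPKM in ESCs, a difference of 4.63 (adjusted p = 2.08e-11). Cdh1 averaged 138 ± 35.6 FPKM in EpiSCs and 91 ± 3.13 FPKM in ESCs, a difference of 0.57. Cldn6, Krt18, Esrp1 and Grhl2 were likewise higher in EpiSCs than in ESCs, by 5.08, 5.72, 3.87 and 2.18. Hmga2 averaged 7.28 ± 0.589 FPKM in ESCs and was higher than in ESCs in both EpiSCs (1.91) and MEFs (5.72). These contrasts share the EpiSC, MEF and ESC libraries with those above and are given side by side only.

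Genes of the sex chromosomes differed as well. Xist, the RNA of the inactive X chromosome, stood at 0.0891, 0.105 and 0.199 FPKM in EpiSCs and at 33.1, 33.3 and 32.3 FPKM in MEFs. The Y-linked gene Ddx3y stood at 22.8, 13.2 and 13.5 FPKM in EpiSCs and at 4.6, 4.38 and 4.62 FPKM in MEFs, and Eif2s3y, Uty and Kdm5d were likewise at 0.621 FPKM or more in every library and higher in EpiSCs. MEF libraries thus held both Xist and Y-linked transcripts, and EpiSC libraries held Y-linked transcripts with Xist near 0.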

How the data were processed

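The labels assigned 3 libraries to EpiSCs and 3 to MEFs. Their protocols name Trizol for the total RNA and a TruSeq kit for the libraries. HISAT2 2.0.4, StringTie 2.1.4 and mm10 are named in the submitters' processing notes. The authors deposited FPKM, and their annotation and strand setting are not given in the sources used here. FPKM times length fell on no common step in single-exon genes (0.789 to 1.61% shared the commonest value), so the depth of each library is unknown.

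The 21199 entries hold 21161 names, and the rows of the 35 repeated names were summed, although they hold equal values in every library column but the first; of these only Aldoa is named here. Genes that reached 1 FPKM in 3 or more of the 12 libraries were fitted with limma 3.58.1 (R 4.3.3) on log2(FPKM + 1), with all 4 groups of the table, a mean trend and Benjamini-Hochberg adjustment, at a threshold of 0.05. The fit was tested on simulated data, where it made too many calls when the groups' spreads differed. A fit with a spread of its own for each group was therefore added as an alternative. That added fit weights each group by 1 factor common to all genes. It was not run on the simulated data, so whether it cures the excess of calls is not known. Coordinates are from GENCODE M21 (GRCm38), which held 20640 of the names, and promoter windows from RefSeq, matched by symbol for 10942 tested genes.

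Described genes were the 12 largest differences each way (at least 5 FPKM in the higher group, no overlap between groups, no predicted names), anchors and up to 4 further members per role of 50 lists, and members against their list's direction. Many others lay outside this rule and were picked after their values were seen, among them Tjp1, Nes, P4ha2, Flna, Pcna and Egln3. Members and lists were chosen with earlier results of these data known, and no set test was run. Alternatives were another pseudocount (0.1 or 5), filter, scaling or spread, a replicate block, 2 groups only and leaving out each library. A withheld item is not reported here.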

Additional observations from a re-analysis of the deposited data

How the results depend on the processing

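Under every alternative run, both counts of called genes stayed within 1.5 times 6857 higher and 4992 lower in EpiSCs, except that a minimum difference of 1 on the log2 scale left 3141 higher and 2743 lower. Leaving out 1 library at a time gave 6494 to 7188 higher and 4780 to 5353 lower. A spread of its own for each group, added after seeing that the EpiSC libraries were more spread, gave 6446 and 4795, and a fit of EpiSC and MEF libraries alone gave 6391 and 4712. The replicate numbers showed no clear pairing of the libraries: deviations of same-numbered EpiSC and MEF libraries correlated at 0.0214, 0.0137 and 0.00718. EpiSC replicates 1 and 2 correlated best with the MEF library of the same number, and EpiSC replicate 3 with MEF replicate 2. So few libraries cannot exclude a pairing. With the replicate number as a block (replicate block), 6833 genes were higher and 4954 lower, and 1 of the genes chosen by the naming rule lost its call. Counted over the genes chosen by the naming rule and the list medians, and so not over every gene in the text, median-of-ratios scaling ended 7 calls and moved 28 list medians, leaving out EpiSC replicate 1 ended 1 call, made 6 and moved 15 list medians, and the fit of 2 groups alone ended 14 calls and made 3. Directions turned for Myc, which ranged between -0.23 and 0.28, for the median of FGF genes, which ranged between -0.49 and 0.03, and for the median of p53 targets, which ranged between -0.46 and 0.02, over the fits that leave out 1 library each. The cause was not tested. A pseudocount of 5 or 0.1 moved 28 and 22 list medians. Differences of genes at or near 0 in 1 group depend on it, and the unknown depth limits what a listed 0 means.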
